A study of Mus musculus with 3 samples.

Results

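The interleukin-1 system was described here through 6 genes chosen by symbol: the ligands Il1a and Il1b, the antagonist Il1rn, the receptors Il1r1 and Il1r2, and the co-receptor Il1rap. All 6 were found among the 32247 gene symbols of the count matrix. In the mouse uterus at pregnancy day 7.5, Il1b and the decoy receptor Il1r2 were almost confined to mononuclear phagocytes, while Il1a was shared between phagocytes and epithelium. The signalling receptor Il1r1 lay mostly in the stroma, with a level in the same range in the small T cell class. Il1rap was low and spread over many cell types.

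IL-1α and IL-1β bind the same receptor, encoded by Il1r1, which then recruits the accessory protein encoded by Il1rap and signals through MYD88 and IRAK kinases to NF-kB. Il1rn encodes a ligand-like protein that occupies the receptor without signalling, and Il1r2 encodes a decoy that binds ligand but lacks the signalling domain. IL-1β is made as a precursor that is usually cut by caspase-1 in an inflammasome, whereas the IL-1α precursor is already active. In the uterus the system is known for its part in inflammation, implantation and the cross-talk of immune cells with decidualising stroma.

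The series holds 3 single-cell libraries of whole mouse uterus, each taken apart with trypsin and run through droplets in which the 3′ ends of transcripts are tagged. One library, from a mated female for which the labels give no genotype, strain or transgene, was analysed. The libraries labelled Prl8a2icre/+ Sun1-GFPLsL/+ and Sun1-GFPLsL/+ were not analysed here. Females were housed with littermates until 8 weeks of age. With 1 library there was no replicate, so no test between animals was possible, and every interval given is a 95% interval that covers counting error only.

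Of 2775 barcodes with a median of 3225 unique molecular identifiers (UMIs, 1 per captured transcript), 1812 cells were kept, with a median of 4509.5 UMIs and 1866 genes. They fell into 21 clusters, which were grouped into 10 classes from markers. The class names mean resemblance, such as "macrophage-like", are rebuilt and may differ from the authors' own. The 6 genes and their pathway were left out of the clustering. The classes were 269 phagocytes (162 monocyte-like, 84 macrophage-like and 23 dendritic-like cells), 313 natural killer (NK) and innate lymphoid cells, 43 T cells, 23 B cells, 415 undifferentiated stromal cells, 150 decidual stromal cells, 374 epithelial cells, 67 endothelial cells, 88 mesothelial cells and 35 pericytes. A further 35 cells stayed unnamed, and no cluster was named neutrophil.

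Levels are in CPM: the UMIs of a gene, summed over the cells of a group, as a share of all UMIs of that group and scaled by 1000000. Because each transcript gives 1 tag, these levels carry no length scaling, and gene-level counts do not separate the isoforms of Il1rn, Il1rap or other members. A difference between groups was called when the gene had at least 50 UMIs over both sides, differed at least 2-fold and had a ratio interval that left out 1. The call is a description of this library, not of the pregnancy day.

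Il1a and Il1b lie side by side on chromosome 2 but differed in the cells that held most of them, and across the broad cell groups Il1r2 followed Il1b more closely than its neighbour Il1r1. For that reason the sequences just before the listed starts of these 3 genes are shown (RefSeq, GRCm38.p6, 250 bases each, 5′ to 3′ on the gene's strand). Capitals mark matches, on either strand, to 5 motifs: GAGGAA (PU.1 core), TTGCNNAA (C/EBP), TGANTCA (AP-1), an NF-kB motif and TATAAA (a core promoter box). RefSeq promoters were found for 6 of 6 members.
Il1a, chr2:129309973-129310222, minus strand: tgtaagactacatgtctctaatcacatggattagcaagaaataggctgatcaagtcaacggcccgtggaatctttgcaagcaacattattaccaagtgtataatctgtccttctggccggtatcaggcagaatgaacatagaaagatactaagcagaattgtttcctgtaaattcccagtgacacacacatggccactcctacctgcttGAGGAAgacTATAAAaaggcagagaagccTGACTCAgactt
Il1b, chr2:129371140-129371389, minus strand: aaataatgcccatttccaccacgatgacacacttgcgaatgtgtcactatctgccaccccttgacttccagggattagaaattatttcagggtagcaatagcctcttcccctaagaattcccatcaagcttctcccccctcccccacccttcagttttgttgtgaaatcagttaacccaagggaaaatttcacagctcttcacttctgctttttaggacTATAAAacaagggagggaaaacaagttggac
Il1r2, chr1:40085843-40086092, plus strand: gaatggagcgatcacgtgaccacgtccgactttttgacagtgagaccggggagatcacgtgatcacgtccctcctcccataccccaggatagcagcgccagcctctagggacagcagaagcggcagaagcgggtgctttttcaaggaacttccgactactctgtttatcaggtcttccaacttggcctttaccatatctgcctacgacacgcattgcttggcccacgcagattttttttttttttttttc

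The Il1a window held a GAGGAA match 41 bases before the start, a TATAAA match at 32 and a TGANTCA match at 12. The Il1b window held only a TATAAA match, at 31 bases, and the Il1r2 window held none of these letters. Among 32851 RefSeq promoter windows of the same length, 23.3% held GAGGAA, 9.56% held TTGCNNAA, 6.75% held TGANTCA, 45.8% held the NF-kB motif and 12.4% held TATAAA. A match is a string of letters, not a bound site. None of these motifs overlapped another within the 3 windows shown. Of the Il1r1 windows, not shown, the first held a TTGCNNAA match at 133 bases and the second a match to the NF-kB motif at 232.

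On GRCm38, Il1a (ENSMUSG00000027399) spans positions 129299610 to 129309972 of chromosome 2, and Il1b (ENSMUSG00000027398) spans 129364570 to 129371139, with 54598 bases between them. Il1rn (ENSMUSG00000026981) lies far off on the same chromosome, from 24336853 to 24351494. Il1r2 (ENSMUSG00000026073, 40074079 to 40125231) and Il1r1 (ENSMUSG00000026072, 40225080 to 40317257) are neighbours on chromosome 1, 99849 bases apart. The Il1r2 window shown lies inside this Il1r2 span, so it precedes a listed RefSeq start and not the first base of the annotated gene. Il1rap (ENSMUSG00000022514) spans 26581704 to 26730117 of chromosome 16. Annotated genes overlap 5 of the 6: Gm14023 for Il1a, Il1bos for Il1b, Gm16894 for Il1r2 and Gm20319 for Il1rap on the opposite strand, and Gm38070 for Il1r1 and Gm37347 for Il1r2 on the same strand. No source used here gives the strand setting of the counting, so reads of these overlapping genes cannot be told apart with certainty.

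Il1b was the most abundant member, with 2439 UMIs in 180 of the kept cells, and the phagocytes held 98.3% of them while making up 14.8% of cells. Its level there was 1924 CPM (1848 to 2003), with at least 1 UMI in 147 of 269 cells (54.6%, 48.5 to 60.7). Against all other cells this was a 613-fold difference (452 to 852). Il1b, Il1r2, Il1rn and Il1a were higher in phagocytes and Il1r1 was lower, so 4 of 6 members were called higher where 11.1% of 12179 genes were, and 1 was called lower where 30.2% were.

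Outside the phagocytes Il1b was low. It stood at 15.7 CPM in pericytes, where 1 cell held all 4 UMIs, at 11.8 CPM in undifferentiated stroma (7.01 to 18.7) and at 8.58 CPM in T cells from 1 UMI. Endothelium had 5.79 CPM, mesothelium 4.09, NK cells 2.10, epithelium 0.979 and decidual stroma 0.687. In B cells no UMI was found, which allows up to 68.9 CPM. These low classes rest on 1 to 18 UMIs each. By counting error, undifferentiated stroma lay above NK cells, epithelium and decidual stroma, and other neighbours did not separate. The pericyte value is not ranked, because it comes from 1 cell and the interval does not cover spread between cells.

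Free RNA in droplets can give all cell types a like low share of a phagocyte gene, so Il1b was set beside 3 other genes high in phagocytes. In NK cells Il1b stood at 0.109% of its phagocyte level, Lyz2, the lysozyme of phagocytes, at 0.117% and Cd74 at 0.0731%. Tyrobp, at 85.1%, is no reference for NK cells. The source of the NK value was not tested. In undifferentiated stroma Il1b stood at 0.615% (0.364 to 0.974), against 0.195% (0.0715 to 0.425) for Lyz2, 0.330% (0.107 to 0.773) for Tyrobp and 0.157% (0.0810 to 0.274) for Cd74. The interval of Il1b overlapped those of Lyz2 and Tyrobp and lay above that of Cd74. UMIs of Il1b were present in 3.13% of stromal cells (median depth 3302 UMIs) and in 2.24% of NK cells (5807 UMIs).

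**Figure D1:**
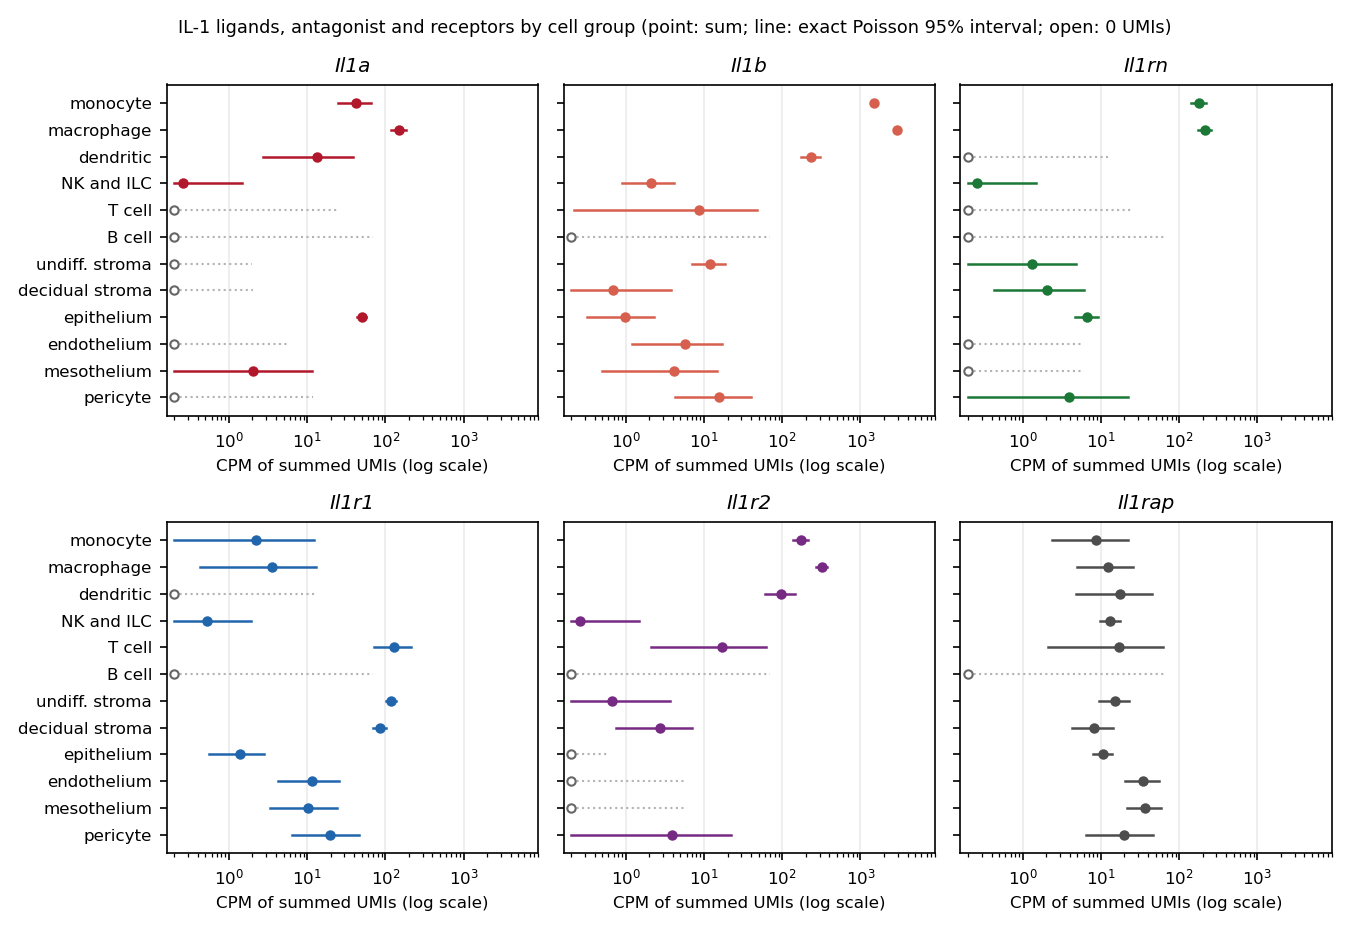
Level of each of the 6 genes by cell group, in CPM on a log axis, with exact Poisson 95% intervals; an open circle at the left edge marks 0 UMIs and its dotted line runs to the level that 3 UMIs would give. Group names stand for "-like" clusters. Il1b, Il1r2 and Il1rn are high in monocyte and macrophage clusters, Il1a also in epithelium, and Il1r1 in T cells and both stromal classes.

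Within the phagocytes the 3 clusters did not hold the members evenly. Il1b stood at 2949 CPM (2808 to 3094) in macrophage-like cells, 1506 CPM (1396 to 1623) in monocyte-like cells and 233 CPM (174 to 305) in dendritic-like cells. Il1a was higher in the macrophage-like than the monocyte-like cluster, 148 against 41.6 CPM (3.55-fold, 2.14 to 6.19), the only call of 4 measured members where 7.36% of genes were called higher. Against the dendritic-like cluster, 4 of 4 measured members were higher in macrophage-like cells and 0 lower (20.5% and 8.21% of genes), and 2 of 3, Il1b and Il1rn, were higher in monocyte-like cells and 0 lower (25% and 7.49%).

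These 3-cluster differences depended on how cells were split. With cells thinned to 2000 UMIs, Il1a stood at 109 CPM in macrophage-like and 136 CPM in monocyte-like cells and was no longer called. As a mean of each cell's CPM, Il1a was not called either (102 against 54.1 CPM) and Il1b was called higher (3170 against 1507 CPM). At a finer clustering (resolution 2) Il1r2 was no longer higher in macrophage-like than in dendritic-like cells but lower, 19.0 against 405 CPM, and with another random seed of the clustering it was also lower, 126 against 457 CPM. Nor was Il1b called higher than in dendritic-like cells in either setting. At resolution 2 it stood at 1841 CPM in macrophage-like, 2156 in monocyte-like and 1881 in dendritic-like cells. With the other seed these levels were 1501, 2142 and 2382 CPM. At the finer clustering 48 cells of the macrophage-like cluster fell into a cluster led by complement genes of resident macrophages such as C1qa, and 35 into a cluster led by Ccr7, the lymph-node homing receptor of mature dendritic cells.

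The 5 finer clusters were therefore compared, a choice made after seeing the data, and each is called by a leading gene. The Ccr7 cluster (35 cells, median 6052 UMIs) was dendritic-like, with Ccr7 at 1321 CPM and Cd209a, a dendritic cell lectin, at 645 CPM. Of 10 dendritic markers 7 were detected there, and Xcr1, Clec9a and Fscn1 had no UMI. The monocyte marker Ccr2 stood at 364 CPM. Summed, dendritic markers stood at 2558 CPM, monocyte markers at 629 and macrophage markers at 380. The C1q cluster (49 cells, 5620 UMIs) was macrophage-like, with C1qa at 1591 CPM against 36.4 CPM in the Ccr7 cluster. The Ly6c2 cluster (90 cells, 1618.5 UMIs) was monocyte-like, with Ly6c2 at 1066 CPM. The Xcr1 cluster (22 cells, 10753 UMIs) was dendritic-like. The Siglech cluster (74 cells, 1333 UMIs) took that name by the marker rule too, but 71 of its cells came from the monocyte-like cluster. Siglech, at 437 CPM, was found in 10 of its cells, and the monocyte markers Plac8, at 795 CPM, and Ccr2, at 676 CPM, stood higher, so it is called by its leading gene alone. Il1r2 is itself among the leading genes of the Ccr7 cluster, although it played no part in the clustering.

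Il1b was highest in the Ccr7 cluster, at 4924 CPM (4615 to 5248). There 33 of 35 cells had a UMI, and counts ran from 0 through a median of 22 to 76 per cell. The Ly6c2 cluster stood at 2156 CPM, with 51 of 90 cells positive, a median of 1 and a highest count of 59. The C1q cluster stood at 1841 CPM, with 32 of 49 cells positive, a median of 2 and a highest count of 109. Siglech cells had 906 CPM, with 21 of 74 cells positive, and Xcr1 cells had 234 CPM, with 11 of 22 positive. The order was thus Ccr7, Ly6c2, C1q, Siglech and Xcr1, in which the intervals of Ly6c2 and C1q cells overlapped and nearly every Ccr7 cell carried the transcript.

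Il1r2, the decoy receptor, differed widely among phagocytes. It stood at 884 CPM (756 to 1027) in the Ccr7 cluster, where 25 of 35 cells had a UMI and the highest count was 20. In the C1q cluster it stood at 19.0 CPM (7.63 to 39.1), with 5 of 49 cells positive. This was a 46.6-fold difference (22.1 to 118). Between these lay Siglech cells at 303 CPM, Xcr1 cells at 97.2 CPM and Ly6c2 cells at 61.5 CPM, of which the last pair rested on 22 and 15 UMIs and did not separate beyond counting error.

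Il1a was highest where Il1r2 was lowest. In the C1q cluster it stood at 206 CPM (162 to 258), with 15 of 49 cells positive and a highest count of 14. Ly6c2 cells had 77.9 CPM, Ccr7 cells 36.4 CPM, Xcr1 cells 13.2 CPM and Siglech cells no UMI, which allows up to 13.8 CPM. In the Ly6c2 cluster 1 cell held 15 of the 19 UMIs, and without it the level was 16.5 CPM. The values from Ly6c2 cells down, the others from 7, 3 and 0 UMIs, have no firm order.

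Il1rn stood at 303 CPM (238 to 381) in Ly6c2 cells, 225 CPM (179 to 279) in C1q cells and 198 CPM (140 to 271) in Ccr7 cells, with intervals that overlapped between neighbours. It was low in the Siglech cluster, at 27.6 CPM, and no UMI was found in the Xcr1 cluster, which allows up to 13.2 CPM. The antagonist thus followed neither ligand exactly: the C1q and Ccr7 clusters had overlapping intervals for Il1rn and separate ones for Il1a, Il1b and Il1r2.

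**Figure D2:**
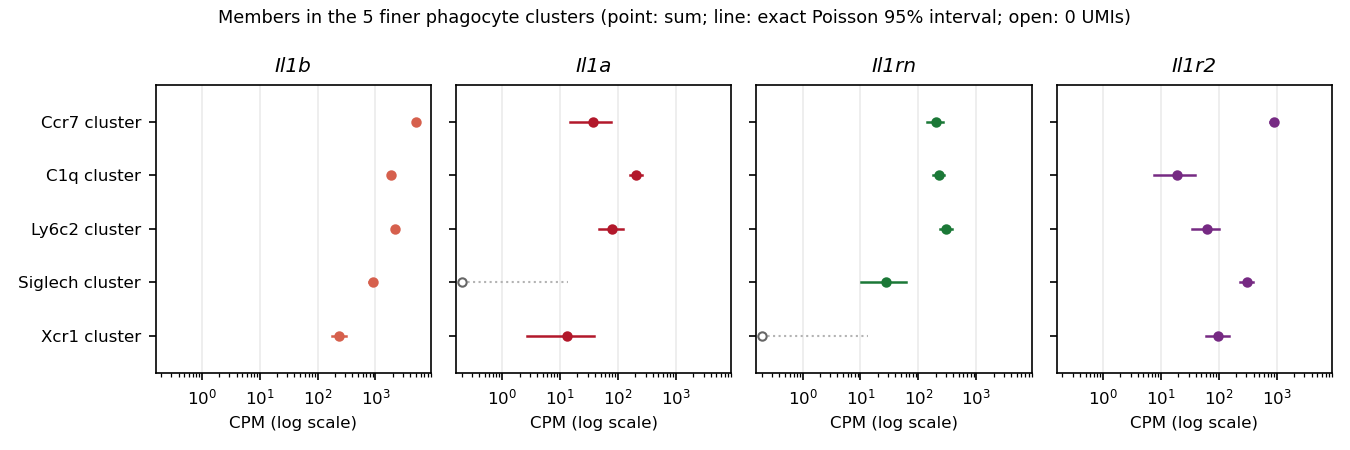
Level of Il1b, Il1a, Il1rn and Il1r2 in the 5 finer phagocyte clusters, in CPM on a log axis, with exact Poisson 95% intervals; open circles mark 0 UMIs, with a dotted line to the level of 3 UMIs. Il1r2 is at 884 CPM in the Ccr7 cluster and 19.0 CPM in the C1q cluster, and Il1a is at 36.4 and 206 CPM in the same pair.

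In pairwise ratios, the Ccr7 cluster exceeded the C1q cluster 2.68-fold in Il1b (2.42 to 2.96) and in Il1r2, so 2 of 4 measured members were higher, where 14.9% of 1796 genes were called higher. Il1a was lower, at 0.177 of the C1q level (0.0687 to 0.382), 1 of 4 where 23.8% of genes were lower, and Il1rn had a ratio of 0.878 (0.582 to 1.30). Against Ly6c2 cells, the Ccr7 cluster was higher in Il1b (2.28-fold) and Il1r2 (14.4-fold), 2 of 3 measured where 14.6% of genes were called. Against Xcr1 cells, both measured members were higher, Il1b 21.0-fold and Il1r2 9.10-fold, where 22% of genes were.

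C1q cells exceeded Ly6c2 cells in Il1a alone, 2.65-fold with the Ly6c2 cell of 15 UMIs included, 1 of 3 measured members where 14% of genes were called higher. Against Xcr1 cells they were higher in 3 of 3 measured members (20.4% of genes): Il1a 15.5-fold, Il1b 7.86-fold and Il1rn at least 17.0-fold, taking 3 UMIs as the floor of the Xcr1 cluster. Siglech cells exceeded Ly6c2 cells in Il1r2, 4.93-fold (2.79 to 9.31), 1 of 3 measured where 7.23% of genes were higher. They were lower in Il1b (0.420) and Il1rn (0.0909), 2 of 3 where 15.2% of genes were lower.

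**Figure D3:**
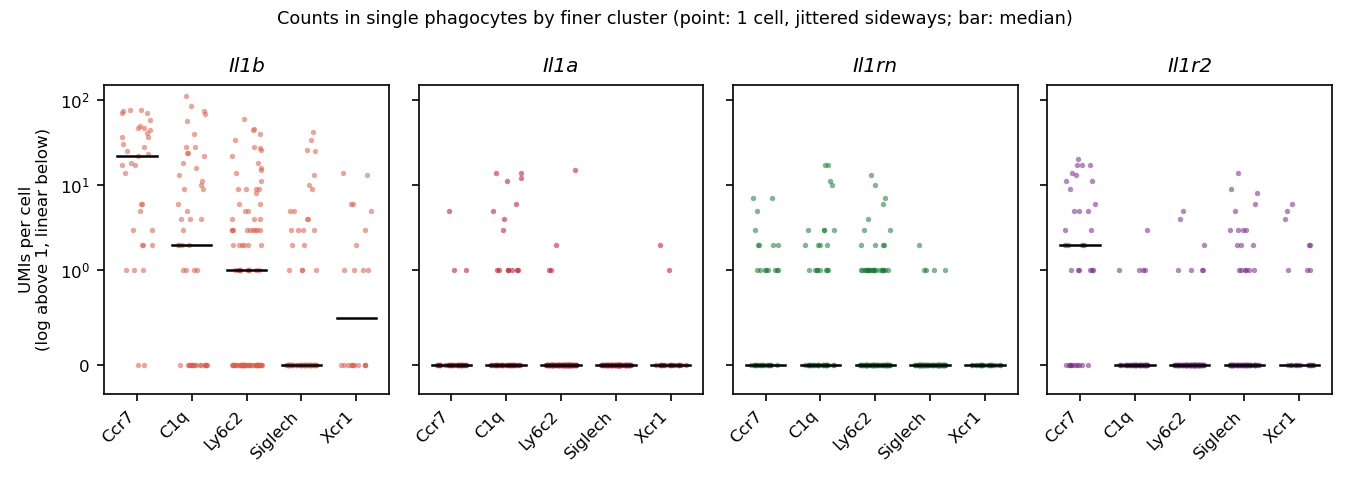
UMIs of 4 members in single phagocytes of the 5 finer clusters; each point is 1 cell, the bar is the median, and the vertical axis is logarithmic above 1 and linear below. Of the Ccr7 cells, 33 of 35 lie above 0 for Il1b (median 22), whereas Il1a and Il1rn have a median of 0 in all 5 clusters.

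Few cells carried most of each transcript. Among the 147 Il1b-positive phagocytes, 20 held 50% of the UMIs. For Il1a the same share came from 4 cells, and the top 10 cells held 84.8% of it. For Il1rn and for Il1r2 it came from 10 cells each. Single-cell counts of Il1a among phagocytes therefore describe a few cells.

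The balance of the members was read as a ratio of UMIs within the same cells, which divides out their depth. Phagocytes held 12.0 UMIs of Il1b per UMI of Il1rn (10.4 to 13.9), with 24.9 in the Ccr7 cluster (18 to 35.4), 8.18 in the C1q cluster (6.51 to 10.4), 7.11 in Ly6c2 cells (5.56 to 9.19) and 32.8 in Siglech cells (14.8 to 90.6). The ratio in Ccr7 cells thus lay above that in C1q and Ly6c2 cells beyond counting error. Il1b exceeded the decoy Il1r2 97.0-fold in UMIs in C1q cells (46.8 to 242) and 5.57-fold in Ccr7 cells (4.73 to 6.60). Il1b exceeded Il1a 8.93-fold in C1q cells and 135-fold in Ccr7 cells.

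In single phagocytes, Il1rn was detected in 36.7% of cells with Il1b and in 13.9% of cells without it, but the former were deeper (median 3709 against 1644 UMIs). With every cell thinned to 1000 UMIs the shares were 18.7% and 10.2%. For Il1r2 they were 30.6% and 14.8%, or 20.6% and 10.2% after thinning. Cells with Il1a carried Il1r2 in 2 of 24 cases (8.33%), against 24.9% of the other phagocytes, but 10% against 15.1% after thinning, with 10 Il1a-positive cells left. They carried Il1rn in 62.5% of cases, against 22.9% of the others, or 50% and 12.4% after thinning. In the Ccr7 cluster, 24 of the 33 Il1b-positive cells also had Il1r2.

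Signs of other cell states were also read in these clusters, and their part in the levels of the members was not tested. Of 12 neutrophil markers, 9 were detected in the monocyte-like cluster at a summed 797 CPM, with the defining genes Ly6g, Ngp and Camp at 0, against 24.9 CPM in the macrophage-like cluster. The 13 monocyte-like cells with at least 2 of these markers held 16 of the cluster's 19 Il1a UMIs, at 384 CPM against 7.23 CPM in the other 149 cells, and 96 Il1b UMIs, at 2302 against 1427 CPM. One cell alone held 15 Il1a UMIs. The 4 monocyte-like cells with S100a8 held 16 Il1a UMIs and 65 Il1b UMIs, the latter at 8225 CPM (6348 to 10483). Very few cells thus carry much of these differences. Among the finer clusters the summed neutrophil level was 1451 CPM in Ly6c2 cells, 46.0 in Siglech cells, 32.5 in C1q cells, 10.4 in Ccr7 cells and 0 in Xcr1 cells. In Ly6c2 cells S100a8 and S100a9 stood at 455 and 517 CPM, each found in 4 of 90 cells.

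A list of 10 immediate early and heat shock genes (Fos, Jun, Atf3, Hspa1a and others, chosen after values were seen), which respond to tissue dissociation among other things, was summed in the same cells. It stood at 23958 CPM in Ly6c2 cells, 14021 in C1q cells, 7420 in Siglech cells, 7274 in Xcr1 cells and 5189 in Ccr7 cells. Outside phagocytes it ranged from 980 CPM in decidual stroma to 14151 CPM in B cells, with 10545 CPM in epithelium and 3441 CPM in undifferentiated stroma. The Ccr7 cluster, highest in Il1b and Il1r2, was the lowest of the 5 in these genes. The others stood in the same order by summed level for these genes and for Il1b: Ly6c2, C1q, Siglech and Xcr1. The part of these early response genes in the levels of the members was not tested.

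Il1a had a second site in the epithelium, which held 70.4% of its 361 UMIs with 34.9% of the library's UMIs. Its level there was 49.8 CPM (43.8 to 56.3), with 79 of 374 cells positive (21.1%, 17.1 to 25.6), against 84.3 CPM (68.9 to 102) in phagocytes. Against all other cells it was 4.43-fold higher in epithelium (3.52 to 5.60), the single member of 6 called higher where 11.4% of genes were. Il1b, Il1rn, Il1r1 and Il1r2 were lower there, 4 of 6 where 27.8% of genes were, and Il1r2 had no UMI among 374 cells, which allows up to 0.588 CPM.

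Epithelial Il1a was set beside other genes high in phagocytes in the same way. It stood at 59.0% of the phagocyte level (46.9 to 74.8), while Lyz2 stood at 0.0969%, Cd74 at 0.0623% and Il1b at 0.0509% of theirs. Elsewhere Il1a was almost absent: 1 UMI each in NK cells and mesothelium and none in T cells, B cells, either stroma, endothelium or pericytes. For undifferentiated and decidual stroma the absence allows up to 1.97 and 2.06 CPM, but for B cells only up to 68.9 CPM.

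Within the epithelium Il1a differed among the 5 clusters, and cluster 13 stood highest. Cluster 13 (38 cells, led by Lcn2, an iron-binding defence protein) stood at 109 CPM (82.7 to 142), with 15 cells positive. Cluster 7 (112 cells) stood at 56.7 CPM (48.2 to 66.2), with 46 cells positive at a median depth of 24432.5 UMIs. Clusters 18 and 8 stood at 30.4 and 26.9 CPM, with 40.7% of cluster 8's UMIs in 1 cell. Cluster 0, the gland-like cluster marked by the implantation proteases Prss28 and Prss29, stood at 4.20 CPM (0.509 to 15.2) from 2 UMIs.

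Against the other epithelial cells, Il1a was 2.54-fold higher in cluster 13 (1.86 to 3.43), 1 of 2 measured members, and none was lower, where 11.9% of 8260 genes were called higher and 6.1% lower. In cluster 0 it was lower, at 0.0772 of the rest, and no member was higher, where 14.2% of genes were lower and 7.65% higher. In cluster 8 it was also lower, at 0.485, and no member was higher, where 6.9% of genes were lower and 1.6% higher. Clusters 7 and 18 had ratios of 1.37 and 0.597 and no call, where 1.83% of genes were higher and 5.47% lower in cluster 7, and 10.7% higher and 16.8% lower in cluster 18. These cluster comparisons were chosen after values were seen. The epithelial Il1a level was 36.1 CPM as a mean of each cell's CPM and 19.3 CPM with cells thinned to 1000 UMIs, where 7 of 363 cells had a UMI.

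Il1rn was also present in epithelium at a low level, 6.66 CPM (4.61 to 9.31) from 34 UMIs in 23 cells, or 4.15% of its phagocyte level (2.80 to 5.99). Of these, 17 UMIs were in cluster 13, at 32.6 CPM (19.0 to 52.2) and in 13 of 38 cells. Epithelium thus held 7.47 UMIs of Il1a per UMI of the antagonist (5.21 to 11.0), against 0.525 (0.411 to 0.668) in phagocytes. The ratio was 3.35 in cluster 13 and 19.9 in cluster 7. In epithelium the balance depended on the weighting of cells: Il1a and Il1rn stood at 36.1 and 14.5 CPM as means over cells, and at 19.3 and 13.8 CPM with cells thinned to 1000 UMIs.

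Across all classes, Il1rn was highest in phagocytes, at 161 CPM (139 to 184) and in 71 of 269 cells (26.4%), a 52.4-fold difference from all other cells (37.3 to 75.2). It was 212 CPM (176 to 254) in macrophage-like and 177 CPM (141 to 220) in monocyte-like cells, whose intervals overlapped. The order turned with the clustering, to 225 against 303 CPM at resolution 2 and 151 against 302 CPM with another seed. The dendritic-like cluster at resolution 1 had none, so the macrophage-like level was at least 16.1-fold higher than a floor of 3 UMIs. With another seed this difference was not called, at 151 against 90.5 CPM. Nor was it called with cells thinned to 2000 UMIs, at 275 against 0 CPM. The Ccr7 cluster, dendritic-like at resolution 2 but part of the macrophage-like cluster at resolution 1, stood at 198 CPM. Beyond phagocytes and epithelium, pericytes stood at 3.93 CPM, decidual stroma at 2.06, undifferentiated stroma at 1.32 and NK cells at 0.263, from 1 to 3 UMIs each. T cells, B cells, endothelium and mesothelium had none.

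Il1r2 was highest in phagocytes at 225 CPM (199 to 253), in 63 of 269 cells (23.4%), and they held 96.6% of its UMIs. The difference from all other cells was 301-fold (161 to 634). Its other levels were 17.2 CPM in T cells, from 2 UMIs in 1 cell, 3.93 in pericytes, 2.75 in decidual stroma, 0.658 in undifferentiated stroma and 0.263 in NK cells, each from 1 to 4 UMIs. B cells, endothelium and mesothelium, like epithelium, had none.

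Il1r1, the receptor that signals, had the reverse pattern. The summed level was 118 CPM (101 to 136) in undifferentiated stroma and 84.5 CPM (70.2 to 101) in decidual stroma, which held 51.9% and 35.7% of its 345 UMIs. It was detected in 127 of 415 undifferentiated cells (30.6%, 26.2 to 35.3) with at most 6 UMIs in a cell, and in 58 of 150 decidual cells (38.7%, 30.8 to 47.0) with at most 14. In NK cells, where the gene served as a background check, only 2 of 313 cells (0.639%) had a UMI at a median depth of 5807, against medians of 3302 and 6839.5 in the 2 stromal classes.

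Against all other cells Il1r1 was 9.29-fold higher in undifferentiated stroma (7.48 to 11.5), 1 of 6 members where 19.8% of genes were higher, and 5.01-fold higher in decidual stroma (3.99 to 6.27), 1 of 6 where 9.5% were. Il1a, Il1b, Il1rn and Il1r2 were lower in both classes, 4 of 6, where 24.2% of genes were lower in undifferentiated and 24.7% in decidual stroma. The highest of these 4 stood at 11.8 CPM in undifferentiated stroma (Il1b) and at 2.75 CPM in decidual stroma (Il1r2).

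T cells had an Il1r1 level in the same range, 129 CPM (72.0 to 212), from 15 UMIs in 6 of 43 cells (14.0%). Against all other cells this was 5.66-fold higher (3.13 to 9.47), 1 of 6 members where 7.98% of genes were, and Il1b was lower, 1 of 6 where 7.89% were. The level did not separate from either stroma beyond counting error. Next in order were pericytes at 19.6 CPM (6.38 to 45.8), endothelium at 11.6 (4.25 to 25.2) and mesothelium at 10.2 (3.32 to 23.9), which did not separate from each other. Phagocytes stood at 2.41 CPM, epithelium at 1.37 and NK cells at 0.525, and B cells had none. In phagocytes Il1r1 was at 0.0942 of the level in other cells (0.0193 to 0.278).

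In the other classes no further member was higher apart from Il1rap. NK and innate lymphoid cells were lower in 5 of 6 members, all but Il1rap, where 34.2% of genes were lower. B cells were lower in Il1b alone, 1 of 6 where 3.54% of genes were, and pericytes in Il1a and Il1b, 2 of 6 where 11.7% were. Endothelium and mesothelium were each lower in Il1a, Il1b, Il1rn and Il1r2, 4 of 6, where 15.1% and 16.5% of genes were lower.

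The 2 stromal classes were compared directly because uterine stroma turns into decidua after implantation. Of the members, only Il1r1 had enough UMIs to measure, and its ratio of decidual to undifferentiated stroma was 0.718 (0.566 to 0.908), under the 2-fold limit of a call. So 0 of 1 measured members were higher (8.57% of 7455 genes) and 0 were lower (18.3%). Thinned to 2000 UMIs the ratio was 0.972 (0.597 to 1.54), and with cells of at least 200 genes kept it was 0.561 (0.42 to 0.742). No alternative gave a call, and the share of positive cells at 1000 UMIs was 9.76% in undifferentiated and 8.28% in decidual stroma. The median mitochondrial share was 11.9% in decidual and 4.28% in undifferentiated stroma, whose part in the ratio was not tested.

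Within decidual stroma Il1r1 was uneven. Cluster 15 (73 cells, with 4 of 8 decidual markers detected) stood at 121 CPM (91.6 to 157) with 37 cells positive, the same value as the larger undifferentiated cluster 5, at 121 CPM (102 to 143). Cluster 1 (77 cells, with 6 of 8 markers) stood at 67.0 CPM (51.8 to 85.3) with 21 cells positive. The ratio of cluster 1 to cluster 15 was 0.554 (0.383 to 0.805), short of the call rule, where 6.81% of genes were lower. The 2 undifferentiated clusters, 4 and 5, stood at 107 and 121 CPM, with a ratio of 0.881 (0.596 to 1.27), where 10.2% of genes were lower.

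**Figure D4:**
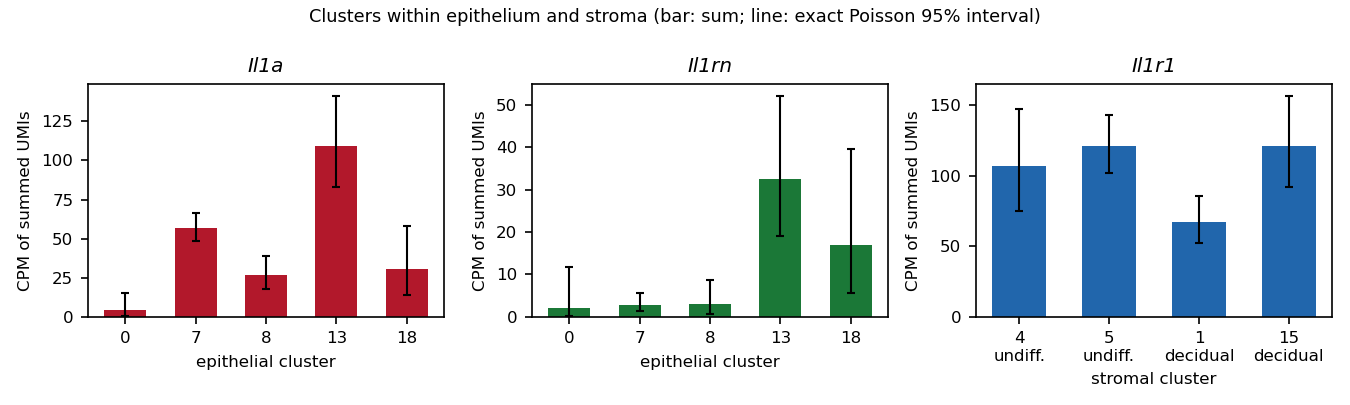
Level of Il1a and Il1rn in the 5 epithelial clusters and of Il1r1 in the 4 stromal clusters, in CPM from 0, as bars of summed UMIs with exact Poisson 95% intervals. Epithelial cluster 13 stands highest for both genes, at 109 CPM for Il1a and 32.6 CPM for Il1rn, and decidual cluster 1 stands lowest for Il1r1, at 67.0 CPM.

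Il1rap, the shared accessory chain, was the least cell-type-bound member, with 198 UMIs in 161 cells. It stood at 36.8 CPM (21.8 to 58.2) in mesothelium and 34.7 CPM (20.6 to 54.9) in endothelium, which did not separate. These were 2.89-fold (1.67 to 4.70) and 2.72-fold (1.58 to 4.43) above all other cells, 1 of 6 members in each, where 14.8% and 13.8% of genes were called. With cells thinned to 2000 UMIs neither passed the call rule, at 37.5 and 24.2 CPM, and fewer UMIs were then counted.

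The other classes followed in a narrow band. Pericytes had 19.6 CPM, T cells 17.2, undifferentiated stroma 15.1 (9.59 to 22.7), NK cells 13.1 (9.74 to 17.3), phagocytes 12.0, epithelium 10.6 (7.95 to 13.8) and decidual stroma 8.24 (4.26 to 14.4), and neighbours in this order did not separate. The decidual level was 2.30 CPM among cells with at most 10% mitochondrial UMIs and 5.52 CPM without the top cell, and under both, and as a mean over cells, it was called lower than in all other cells. B cells had none. Because the epithelium and NK classes are large, they held 27.3% and 25.3% of all Il1rap UMIs. Il1r1 and Il1rap were seen in the same cell in 6 undifferentiated and 5 decidual stromal cells. Among stroma the Il1rap ratio, decidual over undifferentiated, was 0.545 (0.247 to 1.14), from fewer UMIs than the rule asks for.

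Across the 12 cell groups, the levels of Il1b and Il1r2 correlated with Pearson r = 0.96, those of Il1b and Il1rn with 0.85, Il1a and Il1rn with 0.83, and Il1a and Il1b with 0.76, on log2(CPM + 5). The points share 1 library and differ in depth, so these are descriptions. One of the groups is the macrophage-like cluster, which mixes C1q and Ccr7 cells. Once split, Il1b and Il1r2 stood at 1841 and 19.0 CPM in C1q cells and at 4924 and 884 CPM in Ccr7 cells. The correlation thus does not hold for the finer phagocyte clusters in the same way. The genes most like each member among 12179 were, for Il1b, Ptafr (0.98), the receptor of platelet-activating factor, Zfp263 and F630028O10Rik. For Il1r2 they were Lrrc25, Cysltr1, a leukotriene receptor, and Ms4a6c (0.97 to 0.98). For Il1rn they were F13a1, a coagulation factor subunit, Ccr1, a chemokine receptor, and the lectin Clec10a (all 0.98). Il1a was most like Rassf4, Tns4 and Rtn1 (0.94 to 0.95), Il1r1 most like Zbtb16 (0.97), a transcription factor, Ttc38 and Chd3, and Il1rap most like Pde6d (0.94), Tcea1 and Crim1.

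The rest of the pathway was read from 5 lists of 75 gene names, of which 70 were in the matrix. The lists were other ligands, other receptors, processing and release, signal relay, and feedback and response genes. A list is described by its calls under the same rule and by the median log2 ratio of its measured genes beside that of all genes.

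In phagocytes, 6 of 9 measured genes of ligand processing and release were higher and 0 were lower, where 11.1% and 30.2% of all genes were. Their median log2 ratio was 1.45 against -0.43 for all genes. Nlrp3, the inflammasome sensor, stood at 340 against 1.05 CPM in other cells (324-fold, 191 to 599), and Mefv, which encodes pyrin, at 125 against 0.224 CPM (558-fold). Casp1, the protease that cuts pro-IL-1β, stood at 27.3 against 8.45 CPM, the adaptor Pycard at 99.5 against 37.8 CPM, and the pore-forming Gsdmd at 31.3 against 11.6 CPM. These 5 were all called higher, at 2.63-fold to 558-fold.

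Signal relay was higher for 5 of 19 genes in phagocytes and lower for none (11.1% and 30.2% of all genes), with a median of 0.36. These included the kinases Ikbkb (3.28-fold) and Irak2 (2.90-fold) and the adaptor Myd88, at 59.4 against 26.2 CPM. Of the feedback and response genes 9 of 19 were higher and 4 lower, beside the same shares of all genes. The chemokines Ccl2 (311 against 2.84 CPM) and Cxcl2 (35.0-fold) had the highest ratios, Ptgs2, the inducible prostaglandin synthase, stood at 632 against 62.4 CPM, Il6 at 48.2 against 12.5 CPM and Lif at 12.8 against 6.13 CPM, whereas Ccl20 and Cxcl5 were lowest. Il18, an inflammasome-processed relative of IL-1β, was 7.84-fold higher. Of 5 other receptors 3 were lower, where 30.2% of all genes were, among them the inhibitory Sigirr, at 5.62 against 16.1 CPM.

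Between the Ccr7 and C1q clusters, signal relay genes were higher in Ccr7 cells in 5 of 8 measured cases, where 14.9% of all genes were. Their median log2 ratio was 1.10 against -0.14 for all genes. They included Ikbkb (3.35-fold) and Nfkb1, an NF-kB subunit, at 1108 against 374 CPM. Response genes were higher in 0 of 10 and lower in 3, where 14.9% and 23.8% of all genes were. Their median log2 ratio was 0.09 against -0.14, so the list as a whole was not lower. Cxcl2 stood at 250 against 2681 CPM and Ccl2 at 0.190 of the C1q level. Pycard was also lower, at 0.305. The cluster with the highest Il1b thus held less of these 2 chemokine transcripts. Comparing Siglech with Ly6c2 cells, 8 of 8 measured response genes were lower (15.2% of all genes), with a median log2 ratio of -2.04 against -0.01 for all genes, and Nlrp3 stood at 156 against 353 CPM.

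In epithelium, 12 of 19 measured feedback and response genes were higher and 4 lower, where 11.4% and 27.8% of all genes were. Their median log2 ratio was 1.62 against -0.37 for all genes. The chemokines Ccl20 (38.4 against 0.735 CPM, 52.2-fold) and Cxcl5 (41.7 against 0.841 CPM, 49.6-fold) had the highest ratios, while Ccl2 and Hgf had the lowest. Il6 stood at 30.2 against 7.67 CPM and Lif, the cytokine needed for implantation in mice, at 14.7 against 2.42 CPM.

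Processing genes were mostly low in epithelium: 6 of 9 were lower, where 27.8% of all genes were. Nlrp3 stood at 0.392 against 45.7 CPM, Mefv at 0, and Gsdmd at 1.96 against 19.3 CPM. The exception was Casp4, which senses bacterial lipopolysaccharide, at 188 against 34.2 CPM (5.48-fold). Il1f6, which encodes IL-36α, stood at 69.2 against 1.68 CPM (41.1-fold), so the epithelium held a second ligand of the family beside Il1a, and Il18 stood at 1.37 against 10.7 CPM. Of the relay genes Rela was higher (2.18-fold) and Irak3 and Irak4 were lower, 1 and 2 of 19 (11.4% and 27.8% of all genes).

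Epithelial cluster 13, highest in Il1a, was set against the other epithelium, where 11.9% of all genes were higher and 6.1% lower. Il1f6 was 2.02-fold higher and 4 of 5 measured processing genes were higher, led by the calpain Capn2 (4.95-fold), a member of the protease family that cuts pro-IL-1α, and Casp1 (3.88-fold). Response genes were higher in 5 and lower in 4 cases, with Cxcl5 (5.28-fold) and Tnfaip3 (3.49-fold), an NF-kB inhibitor, highest and Il6 at 0.

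Decidual and undifferentiated stroma differed in a few genes of the pathway. Irak3, a brake on MYD88 signalling, stood at 62.5 against 15.8 CPM (3.96-fold, 2.50 to 6.49), Ptgs2 at 72.1 against 10.5 CPM (6.85-fold), the prostaglandin E synthase Ptges at 51.5 against 11.8 CPM (4.35-fold) and the calpain Capn1 2.89-fold higher. Lower in decidual stroma were Il1rl2, the IL-36 receptor, at 16.5 against 36.2 CPM, Casp4 at 0.209, Nfkb1 at 0.425 and Ikbkb at 0.455 of the undifferentiated level. By list, 2 of 7 response genes were higher and 0 lower, 1 of 16 relay genes higher and 3 lower, 1 of 4 processing genes higher and 1 lower, and the 1 measured receptor lower. Over all genes 8.57% were higher and 18.3% lower, so the relay counts lay near those shares. The median log2 ratios were 0.29, -0.38, 0.42 and -1.12 in that order, against -0.31 for all genes.

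Among other receptors of the family, 3 of 5 measured were higher in T cells, where 7.98% of all genes were. They were the IL-18 receptor chains Il18r1 (352 against 6.34 CPM) and Il18rap (94.4 against 6.0 CPM), and Sigirr (51.5 against 15 CPM). The class is small and these rest on 41, 11 and 6 UMIs. In NK cells 2 of the 5 were higher, Il18rap at 18.4 against 2.59 CPM and Sigirr at 28.9 against 10.4 CPM, and 2 were lower. Over all genes 11.7% were higher and 34.2% lower in NK cells. Mesothelium stood out for Il18, at 83.8 against 4.81 CPM (17.4-fold), together with Il18r1 (7.02-fold), the IL-18 binding protein Il18bp (5.89-fold) and Gsdmd (51.1 against 12.0 CPM). Of its response genes 0 were higher and 9 lower of 19, where 14.8% and 16.5% of all genes were, and their median log2 ratio was -1.92 against 0.03.

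**Figure D5:**
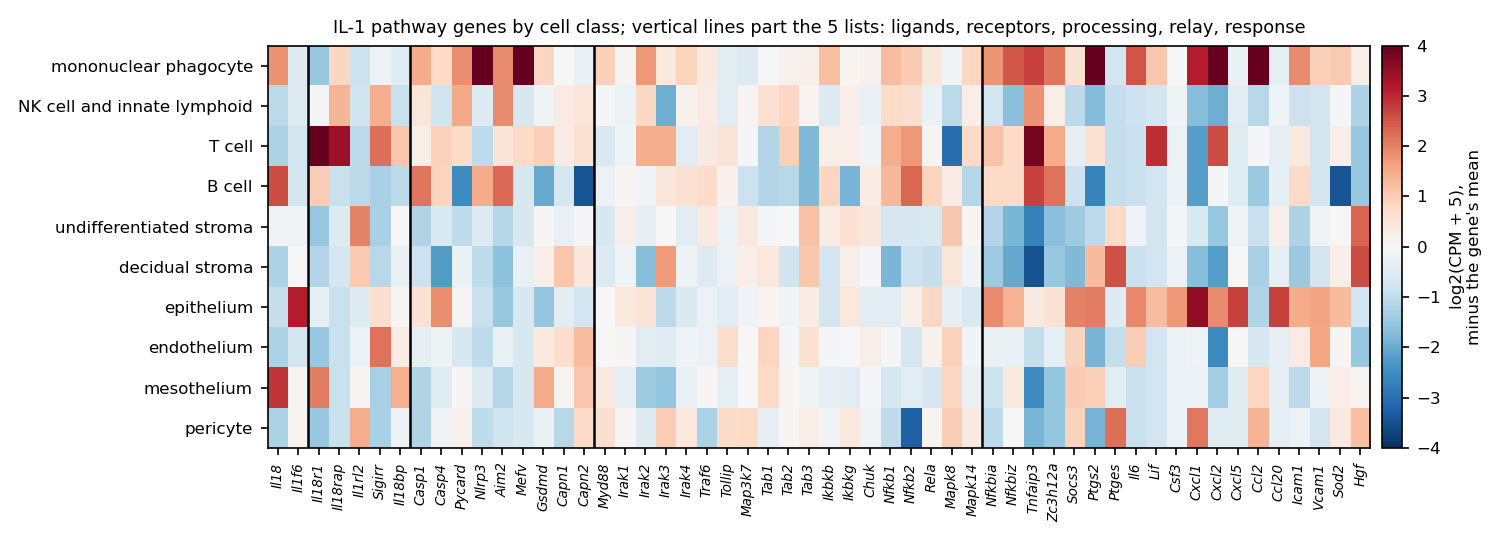
Levels of 54 pathway genes with at least 50 UMIs in the 10 cell classes, as log2(CPM + 5) minus the gene's mean over classes; the colour scale ends at -4 and 4, and values beyond take the end colour. Columns are genes, grouped by list, and rows are classes; Nlrp3 and Mefv stand out in phagocytes, Ccl20, Cxcl5 and Il1f6 in epithelium, and Il18r1 in T cells.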

How the data were processed

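Whole-uterus cells of 1 library (pregnancy day 7.5) were analysed. The authors deposited raw UMI counts per gene and barcode, with gene and barcode lists (other, no measurement); Cell Ranger 4.0.0 made them per the file headers, on mm10 per the submitters' processing notes. No source used here gives its annotation release or strand setting.

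From these, features with the same symbol were summed and barcodes with at least 500 genes and at most 20% mitochondrial UMIs were kept (1825 of 2775); 13 doublets (0.712%) called by Scrublet in scanpy 1.11.5 at an expected rate of 5% were removed, leaving 1812 cells and 14622717 UMIs. Counts were scaled to 10000 per cell and logged, and clusters came from the Leiden method at resolution 1 (seed 0; igraph 0.11.9) on a graph of 15 neighbours in 30 principal components of the 2000 most variable genes. The 76 member and pathway genes were left out. Clusters were named from 165 markers in 20 sets. A name needed at least 3 markers detected in 10% of cells; 1 shallow cluster stayed unnamed.

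CPM carry exact Poisson intervals, shares exact Clopper-Pearson intervals and ratios exact conditional binomial intervals (scipy 1.17.1), all 95% and for counting error only; droplets share free RNA. A count of 0 is given with the level of 3 UMIs. There is no test between animals and no p-value. The counting and call functions were tested on simulated data.

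The members and lists were chosen with earlier results of these data known. Named were the 6 members, of each pathway list at most the 2 highest and 2 lowest called genes, and Casp1, Nlrp3, Pycard, Gsdmd, Myd88, Irak3, Sigirr, Il18, Ptgs2, Il6 and Lif; the most alike genes are the top 3 by Pearson r. Others were named after their values were seen, among them the neutrophil and early response genes.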

Additional observations from a re-analysis of the deposited data

Results flagged for a closer look

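The 963 barcodes that did not pass the cell filters, with a median of 1903 UMIs and 2226077 UMIs in all, enter no comparison above, yet all 6 genes were present in them above the 1.35 CPM that 3 UMIs would give. Il1b stood at 56.2 CPM there (125 UMIs, 4.88% of all its UMIs in the library), against 167 CPM in kept cells. Il1r1 stood at 22.5 CPM (50 UMIs, 12.7% of its UMIs), against 23.6 CPM in kept cells. Il1a and Il1rn both stood at 16.2 CPM (36 UMIs each, 9.07% and 13% of their UMIs), against 24.7 and 16.5 CPM in kept cells. Il1rap stood at 9.43 CPM (21 UMIs), against 13.5 CPM, and Il1r2 at 7.19 CPM (16 UMIs), against 19.8 CPM. Which cells these barcodes came from was not tested.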

How the results depend on the processing

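Against all other cells, 10 calls of a member as higher and 30 as lower were made over the 10 classes; across the alternatives these counts ranged from 8 to 10 and from 27 to 44. No member was called between decidual and undifferentiated stroma under any alternative. Among the 3 phagocyte clusters, 7 calls as higher and 0 as lower were made; thinning to 2000 UMIs left 4 higher, resolution 2 gave 4 higher and 2 lower, and another seed gave 3 higher and 2 lower. The 2 lower calls were Il1r2 in macrophage-like and monocyte-like against dendritic-like cells, so that direction follows the split of cells. As a mean of each cell's CPM the count stayed at 7, with Il1b called in place of Il1a in macrophage-like against monocyte-like cells. Of 200 recomputed levels and ratios, 150 moved by less than counting error and 50 moved by more. A single level has no direction that could reverse. Only the Il1r1 ratio of decidual to undifferentiated stroma could, and it did not. The moves of over 1.5 times were Il1r2 in macrophage-like cells (319 to 19.0 CPM at resolution 2, 126 with another seed) and monocyte-like cells (173 to 61.5 and 61.2), Il1b in macrophage-like cells (2949 to 1841 and 1501), Il1rn in monocyte-like cells (177 to 303 and 302, and 312 thinned to 1000 UMIs), Il1rn in phagocytes (161 to 251 thinned to 1000), Il1a in epithelium (49.8 to 19.3 thinned to 1000) and Il1rn in epithelium (6.66 to 14.5 as a mean over cells and 13.8 thinned to 1000). The other alternatives were resolution 0.5, at least 200 genes, at most 10% mitochondrial UMIs, at least 20 UMIs, at least 3-fold, leaving out the top cell and leaving out cells with neutrophil markers. For the phagocyte clusters, both other resolutions, the other seed, at least 200 genes, at least 20 UMIs and at least 3-fold were added after seeing the data, as were 1000 UMIs and the neutrophil split. No paired analysis was possible because 1 library was analysed and no result comes from a test.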

Other observations

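Among T-like cells, the 6 cells with Il1r1 carried 4, 3, 3, 2, 2 and 1 UMIs. Il17a, the cytokine of type 17 lymphocytes, was found in 4 of these 6 cells (25 UMIs) and in 2 of the other 37 (5 UMIs). Il7r, the IL-7 receptor, was found in 6 of 6 and 23 of 37 cells. The median depth was 3171 UMIs in cells with Il1r1 and 2426 in the others. These genes were chosen after values were seen, and 6 cells of 1 library allow no comparison.

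The alarmin Il33 and its receptor Il1rl1, relatives of the IL-1 system, had too few UMIs for a call. Il33 had 33 UMIs in all, with its highest level in mesothelium at 34.8 CPM. Il1rl1 had 29 UMIs in all, with its highest level in T cells at 60.0 CPM.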
